A study of Mus musculus with 10 samples.

Results

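Immediate early genes were examined in lung RNA of mice fed a high-fat diet rich in fish oil (FO) or in coconut oil (CO). The 10 genes Fos, Fosb, Jun, Junb, Egr1, Ier2, Atf3, Zfp36, Dusp1 and Nr4a1 were chosen by symbol from the table of raw counts, and all 10 were among its 24059 symbols. The FO and CO groups each held 5 female C57Bl/6 mice, with 1 whole-lung sample per mouse. The mice were 14 weeks old and had eaten their diet for 8 weeks. Both diets were rich in fat, and the study's methods give 19% fat and 0.2% cholesterol for both. The study's table of their composition instead shows differences beyond the source of the fat, cholesterol among them. No group on a standard diet was among these 10 mice. According to the study's methods, mice were anaesthetized with pentobarbital, ventilated and exposed to methacholine for lung function tests before they were killed, and the labels state that the lungs were flushed with PBS. The time between the lung function test and the collection of the lung is not given in the sources used here.

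Immediate early genes are transcribed within minutes of a stimulus, without the need for new protein synthesis, because the factors that switch them on are already present in the cell. Growth factors, stretch, injury, stress hormones and the handling of tissue all induce them. Signals through MAP kinases act on serum response factor and its ETS partners at CArG boxes, and signals through cAMP and calcium act on CREB at cAMP response elements (CRE). Many of the transcripts carry AU-rich elements in the 3′ untranslated region (UTR) and are degraded quickly. The Fos and Jun proteins pair to form the transcription factor AP-1. Egr1, Atf3 and Nr4a1 are also transcription factors, Ier2 is a nuclear protein of the same early response, and the products of Dusp1 and Zfp36 act as brakes.

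Each library held from 229766 to 1124963 counts, of which Rn45s, the precursor of ribosomal RNA, took between 21.8% and 87.0%. The counts on all other genes ranged from 45177 to 473254 per mouse, and the 10 immediate early genes together held 124 to 1028 of them. FO mouse 2 and CO mouse 5 stood out by Malat1, a nuclear RNA, which took 8.53% and 6.15% of their counts other than Rn45s and at most 1.05% in the remaining mice. Gene positions are from GENCODE M21 on GRCm38, which is the same build as mm10. Levels are given as CPM (counts scaled to a common library size) after scaling by TMM, which sets the bulk of genes equal between mice. On this scale 1 count was worth from 0.764 CPM in FO mouse 2 to 6.65 CPM in CO mouse 1, and a floor of 3 counts was used throughout. Lung epithelium was represented as the tissue label states: Scgb1a1 of club cells reached 1064 ± 283 CPM in FO mice and 1369 ± 603 CPM in CO mice, and the surfactant gene Sftpc 1157 ± 312 and 842 ± 373 CPM (SD, n = 5 each).

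Nr4a1 (chr15:101253902-101274795), which encodes the orphan nuclear receptor Nur77, was listed at 0 in all 10 mice. Nr4a1 lies on chromosome 15, and all 891 symbols that RefSeq places on that chromosome were listed at 0 in every mouse, while on the other autosomes and the X chromosome between 47.1% and 68.0% of symbols had counts. The value of Nr4a1 is therefore a property of the table for that chromosome, and no level or upper limit is given for it. The same holds for 5 other immediate early genes on chromosome 15, which are Klf10, Myc, Maff, Trib1 and Arc.

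**Figure D1:**
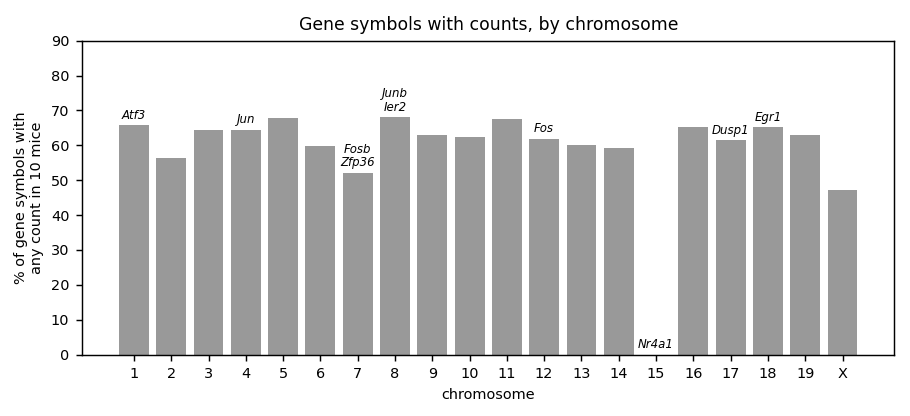
Share of gene symbols with any count in the 10 mice (y axis, percent) for each autosome and the X chromosome (x axis), with the 10 immediate early genes written above the chromosome that holds them. The bar of chromosome 15, where Nr4a1 lies, is at 0, and the other bars lie between 47.1% and 68.0%.

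RefSeq gave a promoter window, from 250 bases before to 50 bases after the transcription start, for 8 of the 10 genes, and none for Egr1 and Ier2. The half-site of the CRE, TGACG on either strand, was present in 6 of these 8 windows (Fos, Fosb, Junb, Atf3, Dusp1 and Nr4a1), against 20.8% of all 32851 windows and 33.9% of the windows of genes that passed the count filter. This motif was chosen after the sequences had been seen. The full CRE, TGACGTCA, which contains the half-site, was found only in Dusp1 among the 8 (1.79% of all windows), and a CArG box only in Zfp36 (1.63%). Sites more than 250 bases before the start were not searched, so a motif missing here may lie farther upstream. The AP-1 site TGANTCA was in none of the 8 (7.81%), the GC box GGGCGG in 7 of 8 (35.7%, and 66.7% of the windows of genes passing the filter), and TATAAA in Fos and Junb (13.6%). All motifs were searched on both strands, and a match is a description of the letters and not of binding. The 150 bases before the start are shown for the 6 measured genes with a CRE half-site or a CArG box in that stretch, in the direction of transcription, on the mouse build GRCm38.p6, from RefSeq. Capitals mark the CRE or its half-site (CGTCA where it lies on the other strand), the TATAAA of Fos and the CArG box of Zfp36.
Fos, chr12:85473740-85473889, plus strand: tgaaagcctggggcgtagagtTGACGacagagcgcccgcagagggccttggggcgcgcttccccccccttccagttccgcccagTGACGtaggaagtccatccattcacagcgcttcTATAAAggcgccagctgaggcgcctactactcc
Fosb, chr7:19310046-19310195, minus strand: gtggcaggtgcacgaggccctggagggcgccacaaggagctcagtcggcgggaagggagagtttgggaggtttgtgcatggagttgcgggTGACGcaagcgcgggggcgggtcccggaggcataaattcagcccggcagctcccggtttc
Junb, chr8:84978749-84978898, minus strand: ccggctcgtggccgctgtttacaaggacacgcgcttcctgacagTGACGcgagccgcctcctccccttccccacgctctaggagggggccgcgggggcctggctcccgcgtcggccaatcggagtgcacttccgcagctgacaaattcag
Atf3, chr1:191183334-191183483, minus strand: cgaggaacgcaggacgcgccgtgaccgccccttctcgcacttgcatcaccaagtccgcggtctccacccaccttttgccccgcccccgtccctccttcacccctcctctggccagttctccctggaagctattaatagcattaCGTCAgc
Dusp1, chr17:26508473-26508622, minus strand: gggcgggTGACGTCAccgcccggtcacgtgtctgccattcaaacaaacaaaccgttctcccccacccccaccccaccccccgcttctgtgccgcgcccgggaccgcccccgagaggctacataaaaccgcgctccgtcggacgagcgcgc
Zfp36, chr7:28379229-28379378, minus strand: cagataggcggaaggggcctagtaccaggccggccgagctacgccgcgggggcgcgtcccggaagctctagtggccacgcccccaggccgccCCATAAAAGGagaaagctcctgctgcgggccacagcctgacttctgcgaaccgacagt

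The half-site began 129 and 66 bases before the start in Fos, 60 in Fosb, 106 in Junb and 7 in Atf3, and the full CRE of Dusp1 began 143 bases before it. The CArG box of Zfp36 began 58 bases before the start.

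The heptamer TATTTAT, the core of AU-rich elements as it reads in DNA, occurred in the 3′ UTR of 6 of the 10 genes, against 25.5% of 21022 genes with a 3′ UTR in the GENCODE annotation and 30.3% of genes that passed the count filter. In 5 of the 10 (Fos, Jun, Atf3, Zfp36 and Dusp1) it lay in the last 300 bases, against 10.3% of all genes with a 3′ UTR of that length and 9.98% of those passing the filter. Dusp1 and Zfp36 held 3 copies each and Fos 2. Short stretches of 30 bases with the heptamer in capitals show its setting, in the direction of transcription.
Fos: acgtttttattgtgttttcaattTATTTAT
Fosb: taatcccaaaccccacccccagcTATTTAT
Jun: aaaagatgacctttgcttgtgcaTATTTAT
Atf3: tttctgtaagagaaaatattactTATTTAT
Dusp1: ggctcatgggagctggtcctTATTTATtta
Zfp36: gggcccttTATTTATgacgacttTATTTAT

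In Zfp36, whose protein binds AU-rich elements and promotes the decay of the RNA, both capital runs lie within 1 such stretch, and in Dusp1 the heptamer is followed at once by more bases of the same repeat. Egr1, Ier2, Junb and Nr4a1 had no TATTTAT in the 3′ UTR.

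Of the AP-1 genes, Fos (chr12:85473890-85477274), the prototype immediate early gene, was measured at 47.2, 93.2, 58.1, 77.8 and 75.3 CPM in FO mice 1 to 5 and at 133, 149, 85.4, 4.20 and 77.4 CPM in CO mice 1 to 5. CO mouse 4 had only 4 Fos counts, and the other CO mice lay between 77.4 and 149 CPM, so that the FO mice fell inside the range of the CO group. The log2 fold change of FO over CO was -0.18 ± 0.51 (SE; 95% interval -1.24 to 0.89; unadjusted p = 0.733 and adjusted p = 0.998 by edgeR's quasi-likelihood test with Benjamini-Hochberg adjustment). The sign of this small difference turned to 0.068 without CO mouse 2, and without CO mouse 4 it stood at -0.57. In whole lung, fewer cells of a type and less RNA per cell cannot be told apart, and this applies to every gene described here.

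Fosb (chr7:19302696-19310118), a close relative of Fos, had 5, 25, 2, 8 and 3 counts in FO mice 1 to 5 and 3, 2, 0, 1 and 5 counts in CO mice 1 to 5. With so few counts Fosb missed the filter, and 3 of the 5 FO mice were above the floor of 3 counts against 1 of the 5 CO mice. In CPM the groups were 11.5 ± 4.96 and 7.64 ± 8.11 (SD, n = 5 each) and overlapped, since CO mouse 1, with 19.9 CPM, was the highest of the 10 mice. In edgeR, over the genes with any count, the log2 fold change was 1.25 ± 0.63 (SE; unadjusted p = 0.0475, adjusted p = 0.905), and the exact permutation test of log2 CPM gave p = 0.270. Without FO mouse 2 the log2 fold change was 0.85 (edgeR, unadjusted p = 0.245), and without CO mouse 3 or CO mouse 4 the call was lost as well (unadjusted p = 0.150 and unadjusted p = 0.200).

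Jun (chr4:95049036-95052222), the main partner of Fos in AP-1, had the smallest spread between mice on the log2 scale of the 9 genes with counts. Its level was 155, 223, 206, 198 and 147 CPM in FO mice 1 to 5 and 199, 202, 226, 138 and 159 CPM in CO mice 1 to 5. The group means, 186 ± 33.0 and 185 ± 35.7 CPM (SD, n = 5 each), were nearly equal, and CO mice 3 and 4 fell just outside the range of the FO group with the other CO mice inside it. The log2 fold change was 0.025 ± 0.22 (SE), with a 95% interval from -0.44 to 0.49, and its sign changed between settings.

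Junb (chr8:84976909-84978748), a Jun family member that pairs with Fos proteins and is a weaker activator than Jun, was the only gene of the 6 that passed the filter to be called at an unadjusted p under 0.05. Its level was 17.3, 40.5, 45.2, 46.9 and 65.5 CPM in FO mice 1 to 5 and 39.9, 32.0, 17.5, 13.6 and 17.1 CPM in CO mice 1 to 5. These came from 15, 53, 7, 38 and 20 counts in FO mice 1 to 5 and 6, 6, 8, 13 and 13 counts in CO mice 1 to 5. Of the FO mice, 4 lay above every CO mouse, and FO mouse 1 lay among the lowest of the CO group. The lowest of those 4, FO mouse 2 at 40.5 CPM, was close to CO mouse 1 at 39.9 CPM, where 1 count was worth 6.65 CPM. The means were 43.1 ± 17.3 and 24.0 ± 11.3 CPM (SD, n = 5 each), and the log2 fold change was 1.02 ± 0.39 (SE; 95% interval 0.21 to 1.84; unadjusted p = 0.0169, adjusted p = 0.998 by edgeR). The two-sided exact permutation test of log2 CPM gave p = 0.0635, where 5 mice against 5 can reach 0.00794. The call was lost without CO mouse 4 (log2 fold change 0.83, edgeR unadjusted p = 0.0638), with library size alone (0.58, unadjusted p = 0.368) and with limma-voom (0.66, unadjusted p = 0.140). Junb overlaps the Prdx2 gene on the opposite strand, and the strand setting of the counting is not given in the sources used here, so reads of the overlap cannot be told apart. Jun, Zfp36 and Atf3 overlap a non-coding gene on the opposite strand in the same way.

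The balance of the AP-1 genes within a mouse does not depend on scaling between mice. Fos made up 23.3%, 29.5%, 22.0%, 28.3% and 33.8% of the summed Fos and Jun counts in FO mice 1 to 5. In CO mice 1 to 5 the share was 40.0%, 42.4%, 27.5%, 2.96% and 32.8%. The value of CO mouse 4, 4 Fos counts beside 131 of Jun, had an exact binomial 95% interval from 0.813% to 7.41%, which no other mouse's interval reached, since the lowest of their lower bounds was 10.6%. The intervals cover counting error only. The exact permutation test of the log ratio of Fos to Jun, two-sided, gave p = 0.952 between the diets. Junb made up 10% to 30.8% of the summed Junb and Jun counts in FO mice and 7.21% to 16.7% in CO mice, and the same exact permutation test gave p = 0.0635.

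Egr1 (chr18:34861207-34864956), a zinc finger factor induced through serum response factor, had the widest spread in CPM. Its level was 85.2, 238, 400, 178 and 131 CPM in FO mice 1 to 5 and 266, 293, 96.4, 32.5 and 134 CPM in CO mice 1 to 5. The highest value, in FO mouse 3, and the lowest, in CO mouse 4, were 12.3-fold apart, and the groups overlapped over most of their range. FO over CO came to a log2 fold change of 0.38 ± 0.47 (SE; 95% interval -0.61 to 1.37; unadjusted p = 0.429, adjusted p = 0.998 by edgeR).

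Ier2 (chr8:84661331-84662852) was measured at 18.4, 36.7, 90.3, 44.5 and 32.7 CPM in FO mice 1 to 5 and at 46.5, 37.3, 26.3, 16.8 and 17.1 CPM in CO mice 1 to 5. FO mouse 3 stood highest, from 14 counts in a shallow library, and the other 4 FO mice fell inside the range of the CO group. Over the groups the log2 fold change was 0.68 ± 0.41 (SE; unadjusted p = 0.112, adjusted p = 0.998 by edgeR). Without FO mouse 1, the lowest of its group, Ier2 passed the threshold at an unadjusted p of 0.0371 (edgeR; log2 fold change 0.91).

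Atf3 (chr1:191170296-191183333), a stress-induced factor of the ATF/CREB family that can repress its targets, had 12, 90, 1, 16 and 2 counts in FO mice 1 to 5 and 1, 7, 5, 4 and 15 counts in CO mice 1 to 5. FO mouse 2 stood apart with 68.8 CPM, whereas the other FO mice had 6.45 to 19.8 CPM and the CO mice 4.20 to 37.3 CPM. Without the filter, edgeR gave a log2 fold change of 1.02 ± 0.43 (SE; unadjusted p = 0.0175, adjusted p = 0.905), and without FO mouse 2 it was 0.026 (unadjusted p = 0.957). The exact permutation test of log2 CPM gave p = 0.706. The call was also lost without CO mouse 4 (log2 fold change 0.69, edgeR unadjusted p = 0.118). FO mouse 2 was also the mouse with the highest Malat1 share and the most counts other than Rn45s. Its summed level was the highest for cardiac muscle (342 CPM), lung endothelial (509 CPM), lung epithelial (4633 CPM) and stromal and smooth muscle markers (608 CPM). The part of any of these in the Atf3 level was not tested.

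Of the genes whose products act as brakes, Dusp1 (chr17:26505591-26508472) encodes a phosphatase that inactivates MAP kinases, and it is also induced by glucocorticoids. Its level was 73.6, 52.0, 83.9, 127 and 58.9 CPM in FO mice 1 to 5 and 93.0, 123, 116, 9.45 and 44.6 CPM in CO mice 1 to 5. CO mouse 4 was again the lowest, and the FO mice fell inside the range of the CO group with the exception of FO mouse 4. Between the diets the log2 fold change was 0.17 ± 0.47 (SE; 95% interval -0.81 to 1.16; unadjusted p = 0.715, adjusted p = 0.998 by edgeR), and it turned to -0.19 without CO mouse 4 and to -0.14 without FO mouse 4. Dusp1 overlaps Ergic1 on the opposite strand in the GENCODE annotation.

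Zfp36 (chr7:28376784-28379228), which encodes the RNA-binding protein tristetraprolin, had 17, 18, 4, 21 and 9 counts in FO mice 1 to 5 and 3, 7, 9, 7 and 2 counts in CO mice 1 to 5. In CPM the FO mice lay between 13.8 and 29.5 and the CO mice between 2.62 and 37.3, so that the CO group held both the highest and the lowest values. The same unfiltered fit by edgeR gave a log2 fold change of 0.73 ± 0.47 (SE; unadjusted p = 0.122, adjusted p = 0.905). It passed the threshold without FO mouse 2 (0.95, edgeR unadjusted p = 0.0447) and without CO mouse 2, the highest of its group (1.13, edgeR unadjusted p = 0.0250).

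**Figure D2:**
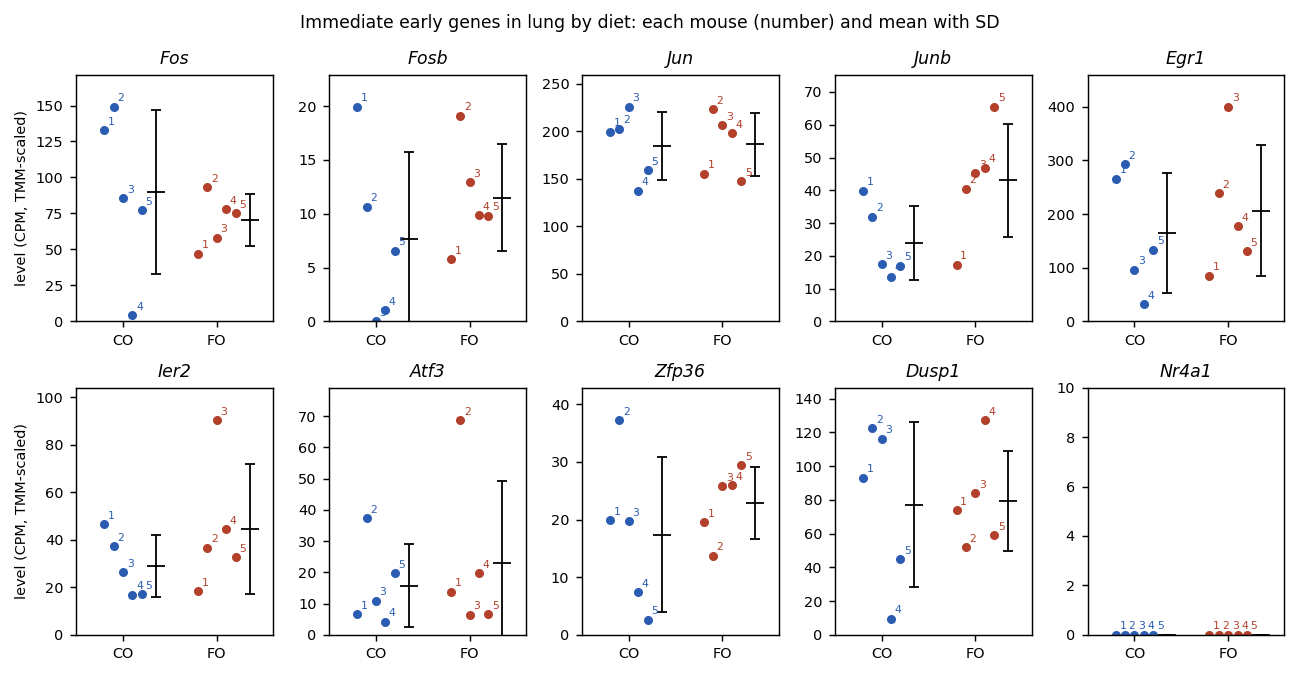
TMM-scaled level (y axis, CPM) of each of the 10 immediate early genes in CO mice (blue) and FO mice (red), numbered by mouse, with the mean and SD of each diet in black. The y axes differ between panels and bars are cut at 0. CO mouse 4 is the lowest mouse for 7 of the 9 genes with counts, FO mouse 2 stands apart for Atf3, and Nr4a1 is at 0 throughout.

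Levels can be compared between genes only per length. Divided by the length of the transcript with the longest coding sequence, the mean level over the 10 mice was 58.1 CPM per kb for Jun, 41.3 for Egr1, 39.3 for Dusp1 and 38.0 for Fos. It was 24.1 CPM per kb for Ier2, 18.5 for Junb, 9.78 for Atf3, 7.22 for Zfp36 and 2.53 for Fosb. The order of Egr1, Dusp1 and Fos is not settled by these values, since each of them varied at least 12.3-fold between mice.

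Counted over the group, 1 of the 6 immediate early genes that passed the filter was called at an unadjusted p under 0.05, and it was higher in FO mice. Among all 2438 genes passing the filter, 2.91% were called, and 1.68% were called and higher in FO mice, so that 1 of 6 is a single gene above this background. None of the 6 passed an adjusted p under 0.05 in edgeR, where 1 of them was under 0.05 unadjusted, and the same counts came from DESeq2. In the fit of all 14161 genes with any count, 3 of the 9 measurable genes were called (Junb, Atf3 and Fosb), all higher in FO mice, against 4.15% of all genes called and 2.58% called and higher in FO mice. The SE of that fit followed the spread of a single gene less closely. It was 0.32 for Fos and 0.28 for Jun, against 0.51 and 0.22 in the filtered fit. The SD between mice of 1 diet was 1.28 and 0.27 (log2). Exact permutation tests of log2 CPM gave p = 0.0635, 0.706 and 0.270 for Junb, Atf3 and Fosb. By DESeq2 neither Atf3 (unadjusted p = 0.271) nor Fosb (unadjusted p = 0.177) was called. The groups overlapped for all 9, and over the genes passing the filter 0.41% had groups that did not overlap. The median log2 fold change was 0.28 over the 6 genes, with 5 of 6 positive, and 0.00 over all genes passing the filter, of which 50.6% were positive. Without FO mouse 2 and CO mouse 5, the mice with high Malat1, Junb itself missed the filter and none of the 5 genes left was called by edgeR. Read over the genes with any count without those 2 mice, an alternative added after the data were seen, Junb had a log2 fold change of 1.01 (unadjusted p = 0.0150).

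**Figure D3:**
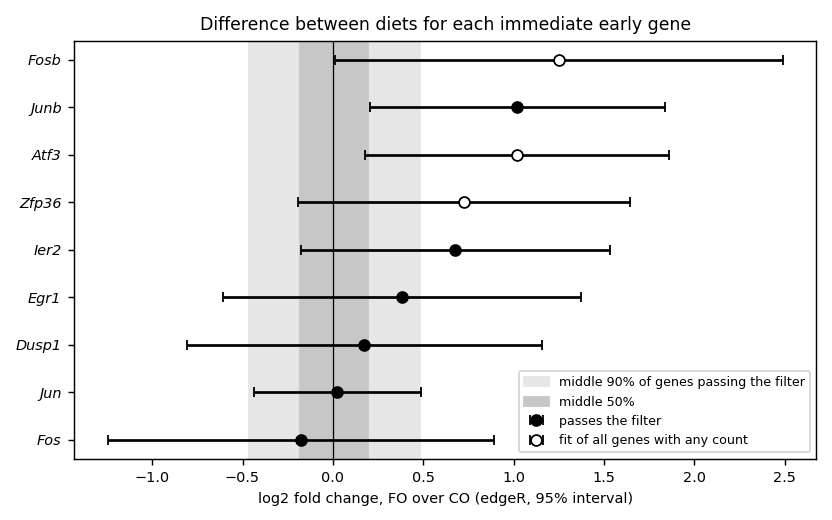
Log2 fold change of FO over CO (x axis) with its 95% interval from edgeR for the 9 immediate early genes with counts (y axis). Filled points passed the filter and open points come from the fit of all genes with any count; the bands hold the middle 90% and 50% of the 2438 genes that passed the filter. The intervals of Junb, Atf3 and Fosb lie above 0 and the others span it.

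A list of 60 other immediate early genes was read in the same fits. Of these, 26 passed the filter and 2 were called, both higher in FO mice, against 2.91% of all genes called and 1.68% called and higher in FO mice. Errfi1, a feedback inhibitor of the EGF receptor, had a log2 fold change of 1.42 ± 0.45 (SE; edgeR unadjusted p = 0.0052, adjusted p = 0.998). Ctgf, a matrix protein gene induced by stretch and TGF-β, had 1.07 ± 0.49 (unadjusted p = 0.0426, adjusted p = 0.998). In the fit of genes with any count 4 of 51 were called, all higher in FO mice, against 4.15% and 2.58% of all genes, the others being Cyr61, a matrix protein gene related to Ctgf (0.80 ± 0.35, SE), and Sik1, a salt-inducible kinase gene (1.03 ± 0.53). The best expressed genes of the list did not pass the test: Nfkbia, the NF-κB inhibitor, was at 261 ± 72.9 and 229 ± 114 CPM in FO and CO mice, and the Krüppel-like factor genes Klf6 and Klf4 at 248 ± 51.1 against 258 ± 87.2 and at 150 ± 45.5 against 168 ± 76.3 (SD, n = 5 each). The median log2 fold change of the 26 genes was 0.16, with 19 of 26 positive.

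The kinases and factors that act upstream were not called in the genes that passed the filter (0 of 17 by edgeR, median log2 fold change -0.12). The best expressed of them was Mapk3, which encodes the MAP kinase ERK1, at 572 ± 141 CPM in FO mice and 496 ± 95.6 CPM in CO mice (SD, n = 5 each). Over the genes with any count, where 4.15% of all were called, 1 of 32 was called, the p38 kinase gene Mapk14, with a log2 fold change of 1.08 ± 0.47 (SE; edgeR unadjusted p = 0.0220, adjusted p = 0.905). The study lists a symbol MAK14, cited to work on MAPK14, among genes from its own test of these data. The call of Mapk14 may therefore not be independent of that test. Of the partners of AP-1 and CREB, 3 passed the filter and none was called, and in the fit of genes with any count the number was 0 of 13.

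Stress-responsive lists were read beside the immediate early genes because handling, heat and stress hormones can induce both, and their calls stand against 2.91% of all genes that passed the filter and 4.15% of all genes with any count. Of the heat shock genes 1 of 8 was called, the co-chaperone gene Bag3 (log2 fold change 0.99 ± 0.39, SE; edgeR unadjusted p = 0.0197, adjusted p = 0.998), and over the genes with any count 2 of 13, with Hsph1, a chaperone gene (0.88 ± 0.38; unadjusted p = 0.0193, adjusted p = 0.905), in addition. Hsp90ab1, the best expressed, was at 1327 ± 337 and 1313 ± 400 CPM in FO and CO mice (SD, n = 5 each). Of the glucocorticoid-induced genes 2 of 8 were called, Errfi1 and Mt2, a metallothionein gene (1.36 ± 0.39, SE; unadjusted p = 0.0026, adjusted p = 0.998), and in the fit of genes with any count 4 of 15, with Fkbp5 (1.67 ± 0.43) and Zbtb16 (1.48 ± 0.42) in addition. All of these calls were higher in FO mice. The study names Fkbp5 and Mt2 among genes from its own test of these data, and a symbol ZBTP16 that appears to stand for Zbtb16. The calls of the glucocorticoid-induced list are therefore not independent of that test. This list shares 5 genes with the 60 other immediate early genes and Dusp1 with the 10. None of 10 hypoxia-induced genes with any count was called by edgeR.

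Some markers of other cells were called in the same libraries, in the fit of genes with any count, where 4.15% of all genes were called and 2.58% were called and higher in FO mice. Of 10 neutrophil markers, 6 were called, all higher in FO mice, and the summed level of the list was 57.3 to 318 CPM in FO mice and 33.2 to 58.6 CPM in CO mice. Cardiac muscle markers were called for 4 of 9, all higher in FO mice (68.8 to 342 CPM against 39.9 to 181 CPM), macrophage markers for 2 of 8 (231 to 523 against 80.8 to 436 CPM) and erythroid markers for 2 of 3 (45.2 to 72.9 against 2.10 to 81.1 CPM), while 6 hemoglobin symbols were listed at 0. Of the stromal and smooth muscle markers 2 of 10 were called, both higher in FO mice (369 to 608 against 283 to 452 CPM). The summed levels of the diets overlapped for each of these lists. The study names S100a8, S100a9, Retnlg and Mmp8 of the neutrophil list, Myl3 of the cardiac list and Acta2 among genes from its own test of these data. The calls of the neutrophil, cardiac and smooth muscle lists are therefore not independent of that test. None of 12 lung epithelial, 10 lung endothelial and 11 lymphocyte markers was called. The part of these cells in the levels of the immediate early genes was not tested.

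The spread between mice of one diet was large for some of the genes and small for others. On the log2 scale the within-diet SD was 1.28 for Fos, 1.05 for Egr1 and 1.04 for Dusp1, against a median of 0.47 over all genes passing the filter, and these 3 ranked 20, 91 and 99 from the top of 2438 genes. Ier2, with 0.68, and Junb, with 0.61, ranked 431 and 615. Jun, with 0.27, ranked 2250, and 92.2% of genes had a larger SD. For Fos the SD was 0.37 in FO mice and 1.77 in CO mice, and for Dusp1 0.48 and 1.38, and CO mouse 4 was the lowest mouse for both. The median SD of the 6 genes was 0.86, and 0.58 without CO mouse 4, against 0.47 over all genes in either case.

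**Figure D4:**
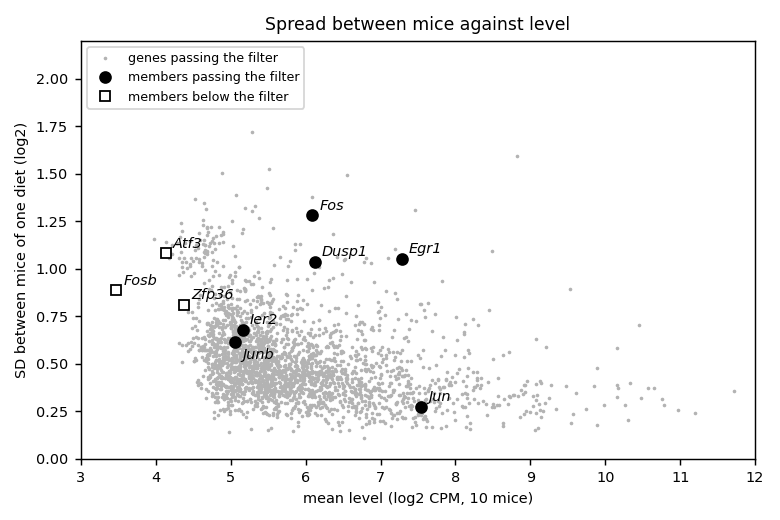
SD between mice of one diet (y axis, log2 scale) against the mean level (x axis, log2 CPM) for genes passing the filter (grey), immediate early genes that passed it (filled circles) and immediate early genes below it (open squares). Fos, Dusp1 and Egr1 lie near the upper edge of the genes of their level and Jun near the lower; 5 genes fall outside the axes.

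The genes rose and fell in the same mice. With the diet means removed, all 15 pairs of the 6 genes that passed the filter had a positive Pearson correlation over the 10 mice, from 0.36 for Jun and Junb to 0.86 for Fos and Dusp1 (Spearman 0.20 and 0.60). The median was 0.67, and 12 of 15 pairs were above 0.5, against a median of 0.00 and 12.6% above 0.5 over all pairs of genes passing the filter. Egr1 and Ier2 had 0.82 by Pearson and by Spearman, and Fos and Egr1 0.80 and 0.67. The points share libraries, their depth and their scaling. Without CO mouse 4 the median was 0.48. With library size alone as the scaling it was 0.040 while the median over all pairs of genes was 0.77. Under that scaling the 6 genes correlated less with each other than a typical pair of genes. Their correlation with the other genes under it was not computed. With the counts outside Rn45s as library size, a scaling chosen after the data were seen, the medians were 0.67 and 0.03.

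The share of the immediate early genes moved with the Rn45s share of the library. Together they held 0.0770% of the non-Rn45s counts in CO mouse 4, whose Rn45s share was 21.8%, and 0.142% in CO mouse 5 at 51.7%. At the other end they made up 0.274%, 0.311% and 0.310% in CO mouse 1, CO mouse 2 and FO mouse 3, whose Rn45s shares were 80.3%, 84.1% and 87.0%. Over the 10 mice Pearson's r was 0.88 and Spearman's rho 0.90. It was 0.76 without CO mice 4 and 5, the farthest from the median Rn45s share, 0.68 within the FO group and 0.95 within the CO group. Single genes followed it to different degrees on the log2 scale, with r of 0.95 for Dusp1, 0.84 for Fos, 0.83 for Egr1, 0.74 for Jun and Ier2 and 0.62 for Junb, against a median of 0.01 over all genes passing the filter. Among those genes 0.0821% had a higher r than Dusp1 and 5.25% a higher r than Junb. Without CO mice 4 and 5 r was 0.74 for Dusp1, 0.69 for Ier2, 0.60 for Egr1, 0.49 for Jun, 0.32 for Fos and 0.19 for Junb. The diets differed in this relation for Fos and Junb. Within the FO group r was -0.28 for Fos and 0.28 for Junb. Within the CO group it was 0.96 for Fos and 0.79 for Junb, and 0.92 and 0.82 without CO mouse 4. For Atf3 r was 0.17 over the 10 mice and -0.41 without CO mice 4 and 5. The 3 libraries with the highest Rn45s share also had the fewest other counts, 45177 to 55639, and the study's methods name TruSeq RNA v2 or riboZero without giving which mouse had which kit. The part of the library kit, of RNA quality and of depth in this relation was not tested.

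**Figure D5:**
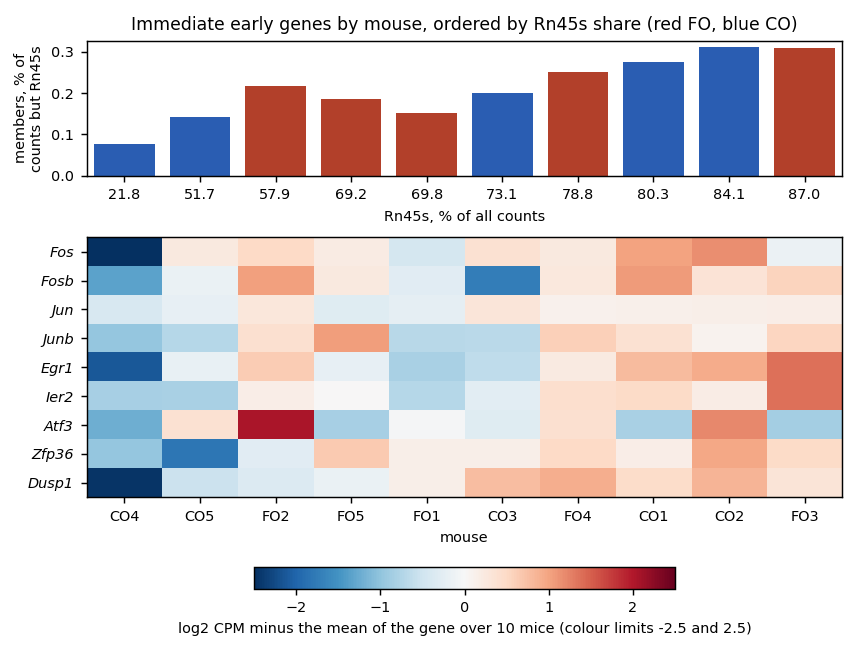
Top, the 10 immediate early genes as percent of the counts outside Rn45s (y axis) for each mouse, ordered by the share of Rn45s in its library (x axis, percent), FO in red and CO in blue. Bottom, log2 CPM of each gene minus its mean over the 10 mice (colour) in the same order of mice. The share runs from 0.0770% in CO mouse 4 to 0.311% in CO mouse 2, CO mouse 4 is blue in all 9 genes, and Atf3 is highest in FO mouse 2.

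Among the 2432 other genes and RNAs that passed the filter, the one whose log2 level was most like the mean of the 6 immediate early genes over the 10 mice was Rn45s itself (Pearson 0.92, Spearman 0.89). It was followed by Lars2, which encodes the mitochondrial leucyl-tRNA synthetase (0.90 and 0.79), Pnpla8 (0.88 and 0.81), Cyr61 (0.88 and 0.88) and Crispld2 (0.87 and 0.66). Vps26a, Rsad2, Efnb2, Cd9 and Lrp6 completed the 10, with Pearson values from 0.80 to 0.84. Cyr61 was the only one of the 10 on the list of other immediate early genes. None of the 10 differed between the diets at an unadjusted p under 0.05 (edgeR), the smallest being 0.0897 for Rsad2.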

How the data were processed

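Lung RNA of 10 mice was sequenced as single-end reads. The authors aligned them with STAR 2.4.0f1 to mm10, used SAMtools 0.1.19 and counted reads with htseq-count. The deposited values are raw counts per gene symbol, without normalization. The annotation, the strand setting and the HTSeq version are not given in the sources used here. All columns were used. Diets were taken from the sample titles.

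The test was that of edgeR 4.0.16, run in R 4.3.3 (TMM, default filterByExpr with a minimum count of 10 and total of 15, quasi-likelihood test without robust estimation). A call is an unadjusted p under 0.05, the threshold of the study's methods. Fosb, Atf3 and Zfp36 missed the filter and were read from the same test on the 14161 genes with any count. Adjusted p-values cover all genes tested in a fit. CPM use the effective library sizes of the filtered fit, log2 CPM a prior count of 2, and exact permutation tests all 252 assignments of 5 mice to each diet. The named genes are the 10 immediate early genes, genes of the other lists with an unadjusted p under 0.05 (at most 4 a list), the 3 best expressed of a list, and the 10 genes most like the group. The genes and lists were chosen with earlier results of these data known. Of the 24059 symbols, 23885 matched RefSeq. Alternatives were DESeq2 1.42.0, RLE factors, library size alone, other filters, robust estimation, limma-voom (limma 3.58.1), the replicate block, Rn45s left out and mice left out. The ways of fitting were tried on simulated counts of the genes passing the filter, with a common dispersion for all genes. The fit of any count was not simulated. Binomial intervals of count shares and floors cover counting error only. The SE and intervals of log2 fold changes come from the edgeR fit and include the spread between mice as that fit estimates it. The p-values of a fit rest on that fit's own estimate of the spread between these mice. Those of the permutation tests rest on reassigning the mice to the diets.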

Additional observations from a re-analysis of the deposited data

Results flagged for a closer look

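The Atf3 level of FO mouse 2, 68.8 CPM, stood apart from the other FO mice, which lay between 6.45 and 19.8 CPM. Its gap to the nearest mouse was 0.786 of the range of the group, above Dixon's critical value of 0.71 for 5 samples. It was the only such value among 18 groups examined (9 genes in each diet), where chance gives about 0.9. The log2 fold change of Atf3 was 1.02 with this mouse and 0.026 without it.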

How the results depend on the processing

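Of the 6 genes passing the filter, 1 was called, and the count was 0 with library size alone, with a minimum of 10 counts per mouse (2 genes left), with limma-voom and without FO mouse 2 and CO mouse 5, 3 of 9 in the fit of any count, and 0 to 2 when 1 mouse was left out (2 without FO mouse 1 and 0 without CO mouse 4, where Junb was tested, and 0 of 5 without FO mouse 2 or FO mouse 4, where Junb missed the filter, as it did without FO mouse 2 and CO mouse 5). Over the genes with any count, added after the data were seen, Junb kept its call in those 3 settings, at log2 fold changes of 1.06, 0.98 and 1.01. For the other immediate early genes the 2 calls became 0 with library size alone and at least 10 counts, 4 with any count, 1 with robust estimation, the replicate block and without FO mouse 2 and CO mouse 5, and 0 to 2 when 1 mouse was left out. Over all genes the 71 calls became 36, 587, 15 and 117 with library size alone, any count, at least 10 counts and limma-voom, and 54 to 154 when 1 mouse was left out. Library size alone moved the median log2 fold change of all genes from 0.00 to -0.55, and changes under it are relative to that shift. The cause of these moves was not tested.

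The log2 fold change of Jun turned to -0.42 with library size alone, -0.0031 with at least 10 counts, -0.11 with limma-voom and -0.10 without FO mouse 2 and CO mouse 5. Junb lost its call at 0.58 with library size alone and 0.66 with limma-voom. Fosb lost it at 1.06 with DESeq2, 1.22 with RLE factors, 0.84 with library size alone, and 1.12 without FO mouse 2 and CO mouse 5. Atf3 lost it at 0.75, 0.71, 0.55 and 0.35 with DESeq2, library size alone, limma-voom and without those 2 mice, and at 0.69 without CO mouse 4. With 1 mouse left out the ranges were -0.57 to 0.068 for Fos, 0.83 to 1.66 for Fosb, -0.068 to 0.11 for Jun, 0.83 to 1.25 for Junb (8 fits in which it passed the filter, and the unfiltered values above), 0.033 to 0.69 for Egr1, 0.40 to 0.91 for Ier2, 0.026 to 1.37 for Atf3, 0.36 to 1.13 for Zfp36 and -0.19 to 0.48 for Dusp1. Single values within these ranges that changed sign were 0.068 for Fos without CO mouse 2, -0.14 and -0.19 for Dusp1 without FO mouse 4 and CO mouse 4, and for Jun -0.054, -0.029, -0.031, -0.068 and -0.023 without FO mouse 2, 3 or 4 and CO mouse 4 or 5.

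The median within-diet SD of 0.86 became 0.60 with library size alone, and 0.58 to 0.91 when 1 mouse was left out. The median correlation of 0.67 became 0.040 with library size alone, and 0.48 to 0.71 when 1 mouse was left out.

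The replicate numbers do not pair the mice: same-numbered mice of the 2 diets are different animals, and their deviations from the diet means correlated at -0.12 on average (-0.41 to 0.032), against 0.030 between different numbers. With the replicate block the count of immediate early genes called stayed at 1, the log2 fold change of Fos turned to 0.030, and Fosb and Atf3 lost their calls at 1.06 and 0.62. Depth limits Fosb, Atf3 and Zfp36 most, since in 3 of the 10 libraries 1 count was worth over 5 CPM.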
